A study of Mus musculus with 6 samples.

Results

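Serpins are a superfamily of proteins with a shared fold, most of which inhibit proteases, and the mouse genes are named by clade, with the letter after Serpin giving the clade. The genes described here were chosen by their annotated symbol alone: every gene whose symbol begins with Serpin and that has a probe set annotated to it and to no other gene. This gave 48 of the 19938 genes measured, with 15 genes of clade A, 24 of clade B, 2 each of clades F and I and 1 each of clades C, D, E, G and H. Each of the 48 genes had a single probe set, so no choice between probe sets was needed. The reference annotation lists 69 Serpin genes, and the other 21 were not analysed here.

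The arrays compared 3 populations of cultured mouse marrow cells, with 2 arrays each. GM-BMDC, labelled dendritic cells, and GM-BMM, labelled macrophages, were sorted from the same kind of culture with 25 ng/ml of the growth factor GM-CSF, as MHCIIhighF4/80low and MHCIIlowF4/80high cells. M-BMM, also labelled macrophages, were CD11b+F4/80+ cells grown with 20% L cell conditioned medium, which supplies M-CSF. All 6 arrays share the strain C57BL/6J, the label male, an age of 6 to 10 weeks and a culture time of 7 days. The labels call the arrays of a population biological replicates but do not tie them to animals or cultures, so p-values measure the spread between these arrays.

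Of the marker genes checked, 8 of 10 for dendritic cells rose in GM-BMDC against GM-BMM (80%, beside 4.69% of all genes). For macrophages, 5 of 9 fell (55.6%, beside 5.74% of all genes). Adgre1, the gene of F4/80, was among these 5, and the sort on F4/80 set its direction in advance. In GM-BMM against M-BMM, 3 of the 10 dendritic cell markers also rose (30%, beside 3.62% of all genes). The macrophage marker Cd163 lay between 5.16 and 5.64 in all arrays, and the dendritic cell marker Xcr1 passed in no GM-BMDC comparison. Clec9a, also a dendritic cell marker, read 6.82 and 6.97 in GM-BMDC against 7.77 and 7.04 in GM-BMM, and did not pass there. Sex-linked genes went against the label in some arrays. Xist, which female cells use to silence an X chromosome, read 10.68 to 11.66 in both GM-BMDC arrays and GM-BMM replicate 1 and 4.53 to 4.93 in the remaining 3 arrays, and the Y-linked gene Eif2s3y was low in the GM-CSF arrays numbered 1 (3.94 for GM-BMDC, 3.66 for GM-BMM), against 8.80 to 9.32 in the others. Each Serpin call below was therefore also made without the GM-CSF arrays numbered 1. That setting does not even out the sex-linked genes. Its GM-BMDC array, replicate 2, read 10.68 for Xist and 8.80 for Eif2s3y, and its other arrays read 4.53 to 4.93 for Xist. Sex and population therefore cannot be told apart there. In the fit of all arrays, Xist also split GM-BMDC (11.66 and 10.68) from M-BMM (4.53 and 4.80). GM-BMDC against M-BMM therefore has the same limit. GM-BMM read 11.58 and 4.93 for Xist, so its comparisons share this limit in part. Values are log2 signals after RMA, a normalization that makes arrays comparable, so a difference of 1 is a 2-fold change. The files mark no background, so a gene is called low in a population whose mean lay below 5.04, where the lowest 25% of all values end. Differences are given with their standard error (SE) from limma, a linear model fitted over all genes, on n = 2 arrays per population, and a gene passed where its Benjamini-Hochberg adjusted p over all genes was under 0.05.

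Most inhibitory serpins act as baits. A protease cuts an exposed loop of the serpin, the serpin changes shape, and the protease is trapped in a covalent complex, so that each serpin molecule is spent once. Clade A holds secreted inhibitors and hormone carriers made largely by the liver, whereas clade B serpins mostly stay inside the cell, where they protect it from its own granule and lysosomal proteases or from those delivered by killer lymphocytes. In myeloid cells, clade B serpins are known as guards against granzymes, neutrophil proteases and urokinase.

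Clade B held 6 of the 7 Serpin genes that passed in at least 1 comparison, and clade F the seventh. In GM-BMDC, Serpinb6b, Serpinb9 and Serpinb9b rose against both macrophage populations. In GM-BMM, Serpinb2 rose against M-BMM and exceeded GM-BMDC, and Serpinb8 was lower in GM-BMDC than in either macrophage population. Serpinb6a was lower in both GM-CSF populations than in M-BMM. Of the 48 genes, 28 were low in all 3 populations. The share of all genes low in all 3 was not counted. By the mean over the arrays, 17 of the 48 and 15823 of all 19938 genes lay above the same level.

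Counted over the family, GM-BMDC exceeded GM-BMM in 3 Serpin genes (6.25%) and lay below it in 2 (4.17%), beside 4.69% and 5.74% of all genes. In GM-BMM against M-BMM 1 was higher and 1 lower (2.08% each), beside 3.62% and 2.57% of all genes. GM-BMDC exceeded M-BMM in 4 (8.33%) and lay below it in 2 (4.17%), beside 7.76% and 8.9% of all genes. Called in either direction were 10.4%, 4.17% and 12.5% of the Serpin genes and 10.4%, 6.19% and 16.7% of all genes, so that the family's share was near or under that of all genes. Within clade B alone, 20.8%, 8.33% and 20.8% of the 24 genes were called in the 3 comparisons, and in clade F 1 of 2 genes in GM-BMDC against M-BMM. The median log2 difference of the 48 genes was 0.06, -0.06 and 0.04 in the 3 comparisons, and that of all genes 0.02, -0.02 and -0.002. The 3 comparisons share populations and are not independent. Without the GM-CSF arrays numbered 1, the counts of higher and lower genes were 5 and 2, 1 and 3, and 7 and 3, the added genes being Serpinb10, Serpinb1a, Serpinb2, Serpinb6b and Serpina1c.

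**Figure D1:**
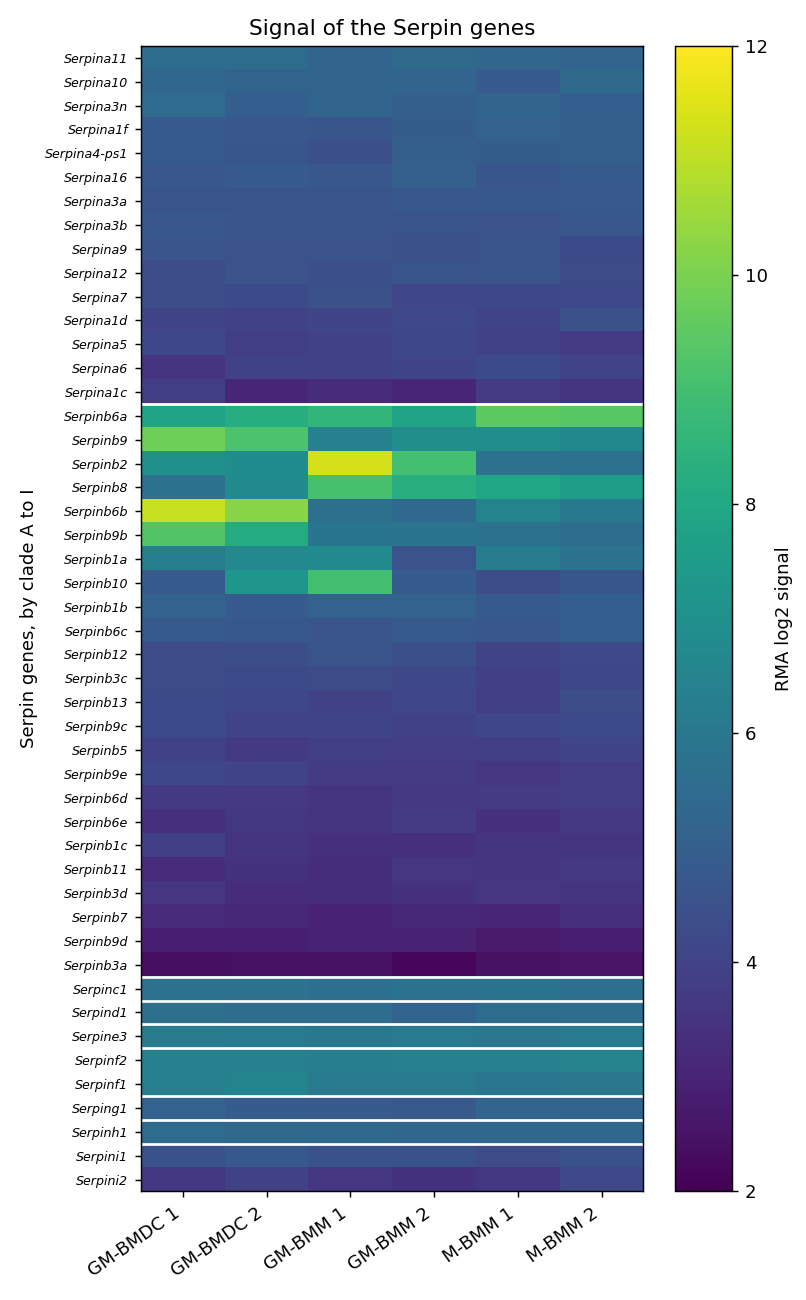
RMA log2 signal (colour) of the 48 Serpin genes in rows, grouped by clade A to I with white lines between clades, in the 6 arrays in columns. The arrays differ visibly in a few clade B rows, such as Serpinb6b and Serpinb2, while the 15 clade A rows stay between 3.06 and 5.59.

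The group of genes high in GM-BMDC came from neighbours on chromosome 13. Serpinb6b, Serpinb9 and Serpinb9b follow each other directly among the protein-coding genes of the RefSeq annotation, at places 4, 5 and 6 of the 17 Serpin genes listed on that chromosome. Their promoter windows, 250 bases before to 50 after the annotated start, are shown because these genes moved together. The sequences are from RefSeq on build GRCm38.p6, plus strand, at chr13:32965011-32965310, chr13:33004291-33004590 and chr13:33027164-33027463, and capitals mark motif matches.
Serpinb6b: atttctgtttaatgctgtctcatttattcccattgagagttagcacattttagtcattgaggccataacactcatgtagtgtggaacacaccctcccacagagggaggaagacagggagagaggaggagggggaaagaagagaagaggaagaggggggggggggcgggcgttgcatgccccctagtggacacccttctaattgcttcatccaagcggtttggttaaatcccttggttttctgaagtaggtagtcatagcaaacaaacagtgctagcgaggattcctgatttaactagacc
Serpinb9: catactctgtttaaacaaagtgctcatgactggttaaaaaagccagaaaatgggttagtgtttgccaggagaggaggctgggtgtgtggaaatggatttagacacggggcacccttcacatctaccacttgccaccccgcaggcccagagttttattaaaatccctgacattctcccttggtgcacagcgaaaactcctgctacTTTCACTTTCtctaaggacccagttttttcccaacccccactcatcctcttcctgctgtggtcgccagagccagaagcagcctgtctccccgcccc
Serpinb9b: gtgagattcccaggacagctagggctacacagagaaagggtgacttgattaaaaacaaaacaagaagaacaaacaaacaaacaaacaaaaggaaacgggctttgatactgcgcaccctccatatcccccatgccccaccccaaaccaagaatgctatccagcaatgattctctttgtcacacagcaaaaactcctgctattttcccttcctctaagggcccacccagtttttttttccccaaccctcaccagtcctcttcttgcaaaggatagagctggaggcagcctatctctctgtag

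The motifs searched, on both strands, were the interferon-stimulated response element ISRE (GAAA, NN, GAAA), a STAT site (TTCNNNGAA), an NF-kappaB site (GGGA, NNNN, CC), AP-1 (TGANTCA), a PU.1 site (GAGGAAGT) and a C/EBP site (TTGCNNAA). Serpinb9 had 1 match, an ISRE on the minus strand whose first base lay 46 bases before the start, and 3.44% of all 32851 promoter windows held that motif. The windows of Serpinb6b and Serpinb9b held no match to the 6 motifs, which says only that these letters are not there. Serpinb9 and Serpinb9b aligned with 67.4% identical bases over 276 aligned positions. Serpinb6b aligned with 59.4% over 254 positions with Serpinb9 and with 54.8% over 259 with Serpinb9b. The Serpinb9 and Serpinb9b stretches around the Serpinb9 match, at chr13:33004485-33004514 and chr13:33027354-33027383, are shown with the aligned 10 bases in capitals.
Serpinb9 stretch: ctcctgctacTTTCACTTTCtctaaggacc
Serpinb9b stretch: ctcctgctatTTTCCCTTCCtctaagggcc

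Serpinb6b (probe set 10404422), known in the mouse as an inhibitor of granzyme A, read 11.15 and 10.23 in the GM-BMDC arrays, 5.69 and 5.42 in GM-BMM and 6.52 and 6.05 in M-BMM. Both GM-BMDC arrays stood above all 4 macrophage arrays, with no overlap. The log2 difference was 5.14 ± 0.30 (SE) against GM-BMM, a 35.2-fold difference (limma adjusted p = 0.000142), and 4.40 ± 0.30 against M-BMM, or 21.2-fold (limma adjusted p = 0.000163). It was the fifth largest rise of all 19938 genes in GM-BMDC over GM-BMM. Between GM-BMM and M-BMM the log2 difference was -0.73 ± 0.30 (limma adjusted p = 0.236), and without the GM-CSF arrays numbered 1 it was -0.87 and passed (limma adjusted p = 0.0429).

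Serpinb9 (probe set 10404429) inhibits granzyme B, the main death-inducing protease of killer lymphocytes. It read 9.79 and 9.18 in GM-BMDC, 6.38 and 6.94 in GM-BMM and 6.91 and 6.66 in M-BMM. The GM-BMDC arrays lay above all macrophage arrays, and the arrays of the 2 macrophage populations overlapped. The log2 difference was 2.83 ± 0.25 against GM-BMM (7.10-fold, limma adjusted p = 0.000707) and 2.70 ± 0.25 against M-BMM (6.50-fold, limma adjusted p = 0.00051). GM-BMM and M-BMM differed by -0.13 ± 0.25, with a 95% interval of -0.71 to 0.46, which does not show that they are alike.

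Serpinb9b (probe set 10404439), a mouse relative of Serpinb9 reported to inhibit granzyme M, read 9.28 and 8.15 in GM-BMDC, 5.90 and 5.83 in GM-BMM and 5.73 and 5.61 in M-BMM. Again the GM-BMDC arrays did not overlap with the others. The log2 difference was 2.85 ± 0.32 against GM-BMM (7.20-fold, limma adjusted p = 0.00191) and 3.04 ± 0.32 against M-BMM (8.25-fold, limma adjusted p = 0.000832). In all 3 genes GM-BMDC replicate 1 was above GM-BMDC replicate 2. All 6 of these calls passed in each of the 15 alternative settings, the fit without the GM-CSF arrays numbered 1 included.

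**Figure D2:**
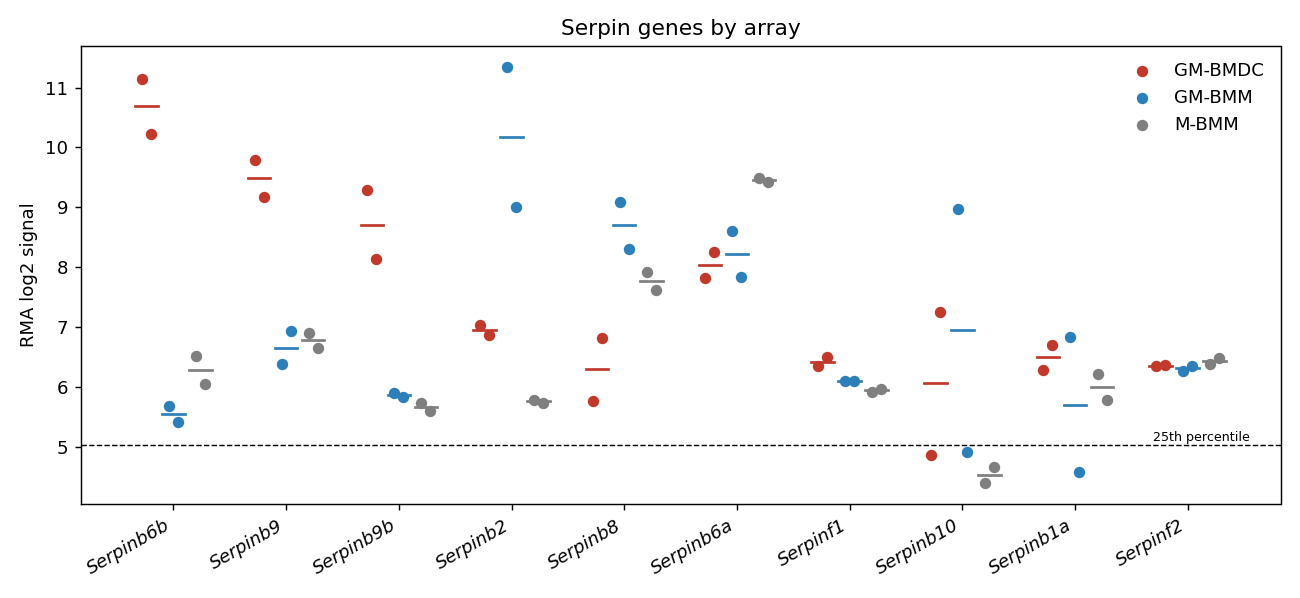
RMA log2 signal (vertical axis) of the 7 Serpin genes that passed in a comparison and of 3 others with a population mean above the median of all values, with a point for each array, a bar for each mean and a dashed line at the 25th percentile of all values, 5.04. The GM-BMDC points of Serpinb6b, Serpinb9 and Serpinb9b stand clear of the others, while Serpinb10 and Serpinb1a spread widely between the arrays of GM-BMM.

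Of the other 10 measured Serpin genes of chromosome 13, the neighbouring copies, 1 passed in a comparison, Serpinb6a. Of all genes, 10.4% were called in GM-BMDC against GM-BMM, 6.19% in GM-BMM against M-BMM and 16.7% in GM-BMDC against M-BMM. The count of calls therefore does not set these 10 genes apart from all genes. Of the 10, 8 had no population mean above the median of all values of 6.22. Serpinb9e, for example, a close relative of Serpinb9b, averaged 4.09 in the GM-BMDC arrays, 3.75 for GM-BMM and 3.69 for M-BMM. Serpinb6c and Serpinb6d, relatives of Serpinb6b, had means of 4.80, 4.74 and 4.85 and of 3.68, 3.61 and 3.77 in the same order of populations. The Serpinb6, Serpinb9 and Serpinb1 copies are alike in sequence, so probes may also bind RNA of a relative, which was not tested.

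**Figure D3:**
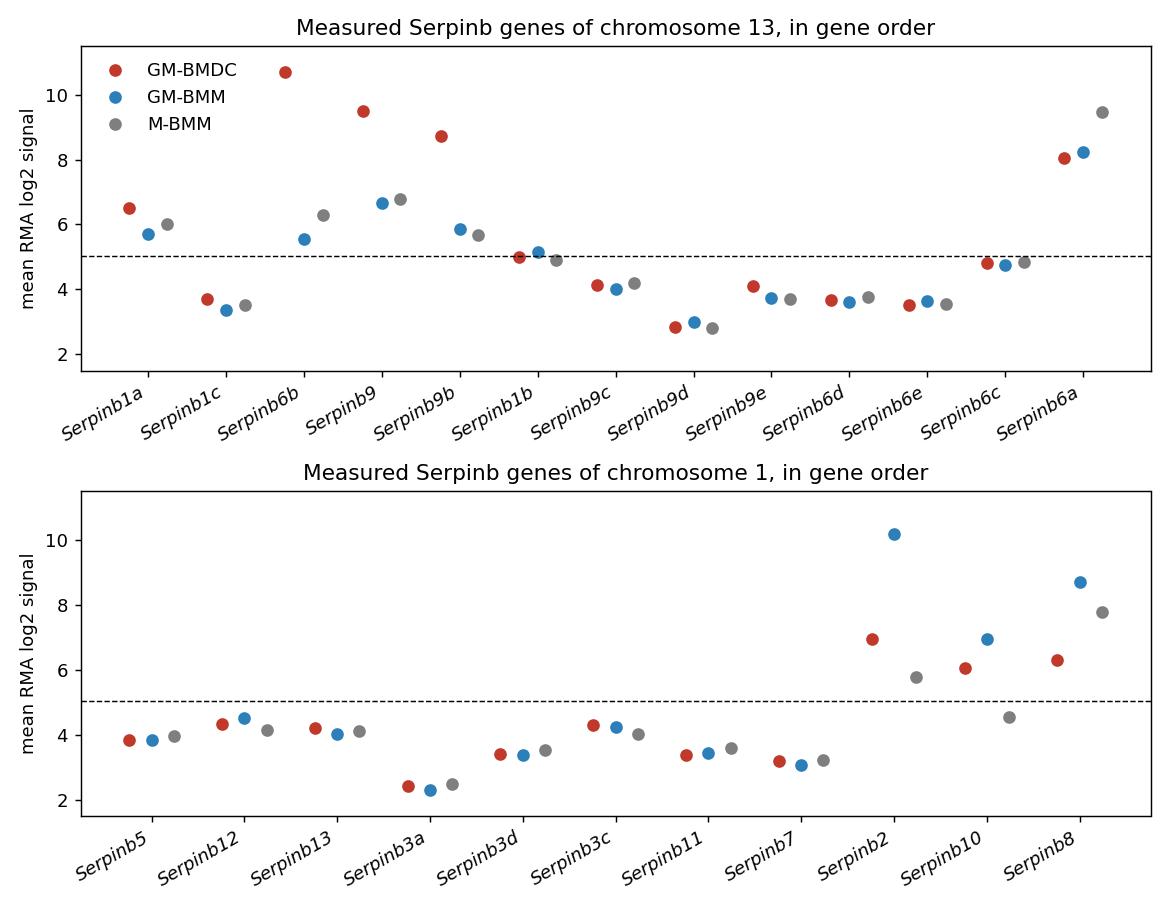
Mean RMA log2 signal of each population (vertical axis) for the measured Serpinb genes of chromosome 13 (upper) and chromosome 1 (lower), in gene order along the horizontal axis with no scale of distance; the dashed line is the 25th percentile of all values. GM-BMDC stands apart at the adjoining Serpinb6b, Serpinb9 and Serpinb9b, and GM-BMM at Serpinb2; levels of different genes cannot be compared with each other.

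Markers of other cell types moved with these genes in part. Of 7 B lymphocyte markers, 3 rose in GM-BMDC against GM-BMM (42.9%, beside 4.69% of all genes). Among them was Cd79a, at 7.15 and 6.23 in GM-BMDC against 3.99 and 4.49 in GM-BMM. The other 4 did not pass. Of these, Cd79b read 8.49 and 7.32 in GM-BMDC, 7.69 and 7.95 in GM-BMM and 10.16 and 10.21 in M-BMM. The list's mean log2 signal was 6.62 and 6.09 in GM-BMDC, 5.52 and 5.65 in GM-BMM and 6.07 and 6.17 in M-BMM, and its part in the result was not tested. For T and NK lymphocytes, which use these serpins for self-protection, 1 of 9 markers, Cd8a, rose in GM-BMDC against GM-BMM, and 4 of the 9, Cd3g, Ncr1, Klrb1c and Gzmb, were low in every array. Others were not low: Cd3e read 6.16 and 6.28 and Prf1 6.23 and 6.12 in GM-BMDC, against 6.16 and 6.18 and 5.97 and 6.07 in GM-BMM. The list's mean log2 signal was 5.45 and 5.31 in GM-BMDC, 5.12 and 5.18 in GM-BMM and 5.25 and 5.27 in M-BMM, and its part was not tested. In sorted bulk samples, a change in the share of a cell type and in RNA per cell cannot be told apart.

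The granzymes themselves gave no call in the fit reported here. Of 23 measured granule and lymphocyte serine proteases, 0 passed in any of the 3 limma comparisons (5, 1 and 1 at an unadjusted p under 0.05, in the order GM-BMDC against GM-BMM, GM-BMM against M-BMM and GM-BMDC against M-BMM), and none had a population mean above the median of all values. Of all genes, 10.4%, 6.19% and 16.7% passed in the same order. At an unadjusted limma p under 0.05 were 23.2%, 19.2% and 28.2% of all genes. Under 1 alternative setting in each comparison, 1 of the 23 passed. Gzma, Gzmb and Gzmm, named here after their values were seen as targets of the 3 serpins, spanned 4.24 to 4.67, 4.10 to 4.52 and 5.57 to 6.01 over the 6 arrays. Elane, Prtn3 and Ctsg, the neutrophil proteases, spanned 5.78 to 6.08, 5.57 to 5.94 and 4.55 to 5.16.

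On chromosome 1, the Serpin genes that passed were Serpinb2 and Serpinb8, with Serpinb10 between them. Their windows are shown because GM-BMM or both macrophage populations stood above GM-BMDC in these genes. Serpinb2 lies at chr1:107511173-107511472, the first of 2 overlapping windows in the table, and Serpinb8 at chr1:107589756-107590055, both RefSeq, GRCm38.p6, plus strand, with motif matches in capitals.
Serpinb2: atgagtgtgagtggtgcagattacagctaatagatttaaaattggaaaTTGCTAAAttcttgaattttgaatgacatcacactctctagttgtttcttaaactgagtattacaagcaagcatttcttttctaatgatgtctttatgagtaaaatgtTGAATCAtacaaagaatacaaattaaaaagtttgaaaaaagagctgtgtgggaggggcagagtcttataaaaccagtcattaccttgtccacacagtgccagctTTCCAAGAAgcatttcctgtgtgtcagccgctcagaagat
Serpinb8: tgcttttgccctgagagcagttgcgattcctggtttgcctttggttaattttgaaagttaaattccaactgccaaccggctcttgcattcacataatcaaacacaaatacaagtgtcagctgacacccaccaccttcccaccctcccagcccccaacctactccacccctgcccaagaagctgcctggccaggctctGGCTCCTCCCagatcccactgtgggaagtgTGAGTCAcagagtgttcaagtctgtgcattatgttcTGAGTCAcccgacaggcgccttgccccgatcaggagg

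In reading order, the Serpinb2 window held a C/EBP, an AP-1 and a STAT match, and the Serpinb8 window an NF-kappaB match on the minus strand and 2 AP-1 matches; none of these overlap. AP-1 matches were in 7.81% of all promoter windows, C/EBP in 10.8%, STAT in 8.3%, NF-kappaB in 20.7% and PU.1 in 3.2%.

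Serpinb2 (probe set 10349157), plasminogen activator inhibitor 2, inhibits urokinase and tissue plasminogen activator and is mostly kept inside monocytes and macrophages. It read 7.04 and 6.88 in GM-BMDC, 11.35 and 9.004 in GM-BMM and 5.79 and 5.74 in M-BMM. The arrays of the 3 populations did not overlap, and the GM-BMM arrays lay 2.34 log2 units apart. The log2 difference of GM-BMDC against GM-BMM was -3.22 ± 0.62, 9.31-fold lower (limma adjusted p = 0.0179), and that of GM-BMM against M-BMM was 4.41 ± 0.62, 21.3-fold higher (limma adjusted p = 0.00704). GM-BMDC and M-BMM differed by 1.19 ± 0.62 (limma adjusted p = 0.272). When only those 2 populations were fitted, without the widely spread GM-BMM arrays, this last difference passed (limma adjusted p = 0.000933). The call against GM-BMM ended in 6 of 15 alternatives: without either GM-BMDC or either M-BMM array, in the fit of those populations alone and with a trended and robust variance (limma adjusted p = 0.0616 to 0.0921). The call of GM-BMM against M-BMM ended in 3, without either M-BMM array or with that variance (limma adjusted p = 0.0586 to 0.094). With GM-BMM replicate 1 left out, the GM-BMDC difference from GM-BMM was -2.05 and that of GM-BMM from M-BMM 3.24; with replicate 2 left out they were -4.39 and 5.58.

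Serpinb8 (probe set 10349174), known in human as an inhibitor of the proprotein convertase furin, read 5.78 and 6.82 in GM-BMDC, 9.09 and 8.31 in GM-BMM and 7.93 and 7.62 in M-BMM. Both GM-BMDC arrays lay below all macrophage arrays, and GM-BMM lay above M-BMM without overlap. The log2 difference was -2.40 ± 0.36 in GM-BMDC against GM-BMM (5.28-fold lower, limma adjusted p = 0.00691) and -1.48 ± 0.36 against M-BMM (2.78-fold lower, limma adjusted p = 0.0316). GM-BMM and M-BMM differed by 0.92 ± 0.36, which did not pass (limma adjusted p = 0.221). The call against GM-BMM passed in all 15 alternatives. That against M-BMM ended in 4, without GM-BMDC replicate 1 (log2 difference -0.95), without either M-BMM array and with a trended and robust variance (limma adjusted p = 0.0716 to 0.207).

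Serpinb10, also called bomapin and found in blood-forming cells, did not pass in any comparison, and its replicates lay far apart. It read 4.88 and 7.26 in GM-BMDC, 8.97 and 4.92 in GM-BMM and 4.40 and 4.67 in M-BMM. The GM-CSF arrays numbered 1 put GM-BMM above GM-BMDC and those numbered 2 put it below. The log2 difference was -0.88 ± 1.23 between GM-BMDC and GM-BMM (limma adjusted p = 0.767), and without the GM-CSF arrays numbered 1 it turned to 2.33. GM-BMM and M-BMM differed by 2.41 ± 1.23 (limma adjusted p = 0.359). This difference was 0.39 without GM-BMM replicate 1 and 4.44 without GM-BMM replicate 2, where it passed (limma adjusted p = 0.0248).

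Other markers moved in part with Serpinb10 and Serpinb2 in the GM-BMM arrays. The mean log2 signal of 10 neutrophil markers was 7.48 in GM-BMM replicate 1 and 6.76 in replicate 2, that of 6 measured eosinophil markers 6.43 and 5.49, and that of 10 mast cell and basophil markers 5.24 and 4.94. In GM-BMDC the neutrophil means were 6.29 and 6.52, in M-BMM 6.62 and 6.53. Ear6, an eosinophil ribonuclease gene, read 8.83 and 5.91 in the same GM-BMM arrays. Of the mast cell and basophil genes, Cpa3 read 5.91 and 4.46 and Hdc 6.61 and 5.89 in GM-BMM replicates 1 and 2. Kit read 6.30 and 5.75 and Gata2 6.27 and 5.98 in these arrays. Tpsb2, at 5.70 and 5.85, went the other way. Mcpt4, Mcpt8, Cma1, Ms4a2 and Fcer1a were low in every array. Of these, Fcer1a (4.42 and 4.56), Cma1 (4.70 and 4.73) and Mcpt4 (3.83 and 3.85) also went the other way. Of the neutrophil markers, Csf3r (9.52 and 9.86), Camp (5.86 and 6.03) and Retnlg (4.67 and 4.70) went against their list mean, and the others with it. The part of these cells in the results was not tested.

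Serpinb6a and Serpinb1a guard against granule proteases of the cell itself. Serpinb6a (probe set 10408600), which inhibits cathepsin G among others, read 7.83 and 8.25 in GM-BMDC, 8.60 and 7.83 in GM-BMM and 9.49 and 9.42 in M-BMM. The M-BMM arrays stood above all GM-CSF arrays, and GM-BMDC and GM-BMM overlapped. The log2 difference was -1.42 ± 0.25 in GM-BMDC against M-BMM (2.67-fold lower, limma adjusted p = 0.00846) and that of GM-BMM against M-BMM was -1.24 ± 0.25 (2.35-fold lower, limma adjusted p = 0.031), which share the M-BMM arrays. The first call ended without GM-BMDC replicate 1 or either M-BMM array (limma adjusted p = 0.054 to 0.0845), and the second without GM-BMM replicate 2 (log2 difference -0.85) or either M-BMM array (limma adjusted p = 0.057 to 0.214). GM-BMDC and GM-BMM differed by -0.18 ± 0.25 (limma adjusted p = 0.766).

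Serpinb1a, the mouse inhibitor of neutrophil elastase, cathepsin G and proteinase 3, passed in no comparison. It read 6.29 and 6.71 in GM-BMDC, 6.84 and 4.58 in GM-BMM and 6.23 and 5.79 in M-BMM, so that GM-BMM replicate 2 alone was low. The log2 differences were 0.79 ± 0.62, -0.30 ± 0.62 and 0.49 ± 0.62 in GM-BMDC against GM-BMM, GM-BMM against M-BMM and GM-BMDC against M-BMM (limma adjusted p = 0.539, 0.873 and 0.698). Without GM-BMM replicate 1 the first 2 of these became 1.92 and -1.43 and passed (limma adjusted p = 0.00503 and 0.0253).

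The clade F genes lie on chromosome 11. Serpinf1 (probe set 10388430) encodes pigment epithelium-derived factor, a secreted serpin that inhibits no protease. It read 6.36 and 6.50 in GM-BMDC, 6.11 and 6.11 in GM-BMM and 5.92 and 5.97 in M-BMM, in 3 steps without overlap. The rise in GM-BMDC against M-BMM was small, 0.48 ± 0.11 or 1.40-fold (limma adjusted p = 0.024), and the call ended in 5 of 15 alternatives, without either GM-BMDC array, either M-BMM array or both GM-CSF arrays numbered 2 (limma adjusted p = 0.0502 to 0.145). The steps from GM-BMM did not pass, at 0.32 ± 0.11 for GM-BMDC against GM-BMM and 0.16 ± 0.11 for GM-BMM against M-BMM (limma adjusted p = 0.128 and 0.52). Serpinf2, the plasmin inhibitor, had means of 6.36, 6.32 and 6.43 in GM-BMDC, GM-BMM and M-BMM and differed by at most 0.11 log2 units in size (limma adjusted p = 0.674 to 0.899).

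The other 38 Serpin genes had no population mean above the median of all values, and their values spanned 2.12 to 6.22. Their log2 differences ran from -0.25 to 0.34 in GM-BMDC against GM-BMM, from -0.45 to 0.38 in GM-BMM against M-BMM and from -0.37 to 0.40 in GM-BMDC against M-BMM, with smallest limma adjusted p of 0.148, 0.107 and 0.0731. All 15 clade A genes, such as the antitrypsin copies Serpina1c and Serpina1d, the corticosteroid carrier gene Serpina6 and the thyroxine carrier gene Serpina7, belong here, with values of 3.06 to 5.59, and 11 of them were low in all populations. By limma 0 of them passed in any comparison, with 0, 0 and 1 at an unadjusted p under 0.05. Of all genes, 10.4%, 6.19% and 16.7% passed, and 23.2%, 19.2% and 28.2% had an unadjusted limma p under 0.05. Of 24 clade B genes, 15 were low in all populations, the Serpinb3 copies and Serpinb5, Serpinb7, Serpinb11, Serpinb12 and Serpinb13 of chromosome 1 among them.

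The single genes of the remaining clades also stayed near each other across populations. Serping1, the C1 inhibitor that controls complement and the contact system, read 5.13 and 4.89 in GM-BMDC, 4.87 and 4.81 in GM-BMM and 5.27 and 5.23 in M-BMM. Its GM-BMM arrays lay below its M-BMM arrays, by -0.41 ± 0.12, and this difference did not pass (limma adjusted p = 0.107). Serpinh1, a collagen chaperone of the endoplasmic reticulum, spanned 5.32 to 5.54 over the 6 arrays. Serpinc1 (antithrombin) spanned 5.64 to 5.86, Serpind1 (heparin cofactor II) 5.20 to 5.68 and Serpine3 6.01 to 6.22. The clade I genes, of which Serpini1 encodes neuroserpin, were low in all populations.

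**Figure D4:**
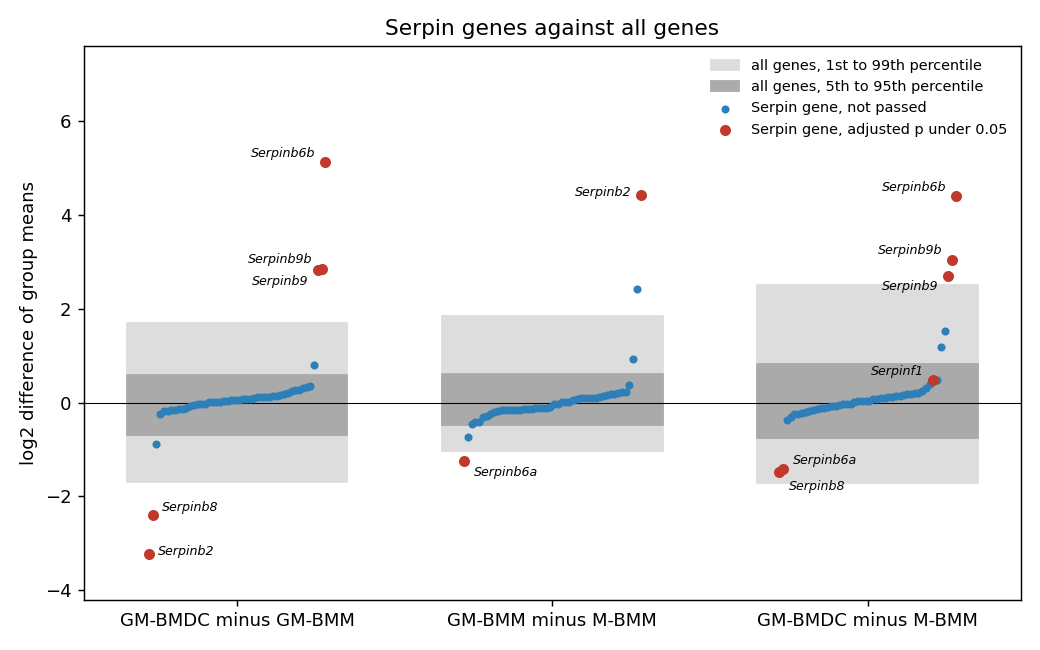
Log2 difference of group means (vertical axis) of the 48 Serpin genes, sorted by size within each comparison, with genes at an adjusted p under 0.05 in red and the 5th to 95th and 1st to 99th percentiles of all 19938 genes in grey. Serpinb6b at 5.14 and 4.40 and Serpinb2 at 4.41 lie beyond the 99th percentile. So do Serpinb9 and Serpinb9b in both GM-BMDC comparisons and Serpinb10, which did not pass, in GM-BMM against M-BMM. Below the 1st percentile lie Serpinb2 and Serpinb8 in GM-BMDC against GM-BMM and Serpinb6a in GM-BMM against M-BMM. Most other members lie near 0.

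The proteases and partners that serpins act on were counted from lists written from textbook knowledge. Of 27 measured genes of the plasminogen and coagulation systems, 2 rose and 5 fell in GM-BMDC against GM-BMM, 5 rose and 1 fell in GM-BMM against M-BMM, and 10 rose and 3 fell in GM-BMDC against M-BMM, with median log2 differences of 0.10, 0.07 and 0.13. In either direction 25.9%, 22.2% and 48.1% were called, beside 10.4%, 6.19% and 16.7% of all genes. F7, coagulation factor VII, read 9.62 and 10.40 in GM-BMDC, 11.27 and 11.05 in GM-BMM and 6.87 and 6.70 in M-BMM, with log2 differences of -1.15 ± 0.24, 4.37 ± 0.24 and 3.22 ± 0.24. F10, coagulation factor X, had differences of 3.13 ± 0.18 in GM-BMM and 3.02 ± 0.18 in GM-BMDC, each against M-BMM. Plaur, the receptor that holds urokinase, the target of Serpinb2, at the cell surface, read 10.27 and 10.40 in GM-BMDC, 10.88 and 9.26 in GM-BMM and 7.70 and 7.53 in M-BMM. Its differences from M-BMM were 2.45 ± 0.44 in GM-BMM and 2.72 ± 0.44 in GM-BMDC (limma adjusted p = 0.0191 and 0.00565). Hgf (-1.32 ± 0.19) and Tfpi (-0.95 ± 0.12), an inhibitor of the factor VII pathway, fell in GM-BMDC against GM-BMM, and Hgfac, which activates the Hgf product, rose (0.75 ± 0.16). F2rl2, a protease-activated receptor gene, read 9.39 and 10.45 in GM-BMDC, 8.43 and 5.99 in GM-BMM and 5.50 and 6.15 in M-BMM. It had the largest passing difference of the list in GM-BMDC against M-BMM (4.10 ± 0.72, limma adjusted p = 0.00826). Procr, the protein C receptor gene, rose in GM-BMM against M-BMM by 2.30 ± 0.28.

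Some intracellular proteases fell in GM-BMDC. Of 17 measured cathepsins, legumain, caspases and calpains, 0 rose and 6 fell in GM-BMDC against GM-BMM, 3 rose and 0 fell in GM-BMM against M-BMM, and 1 rose and 8 fell in GM-BMDC against M-BMM, with median log2 differences of -0.52, 0.15 and -0.37. In either direction 35.3%, 17.6% and 52.9% were called, beside 10.4%, 6.19% and 16.7% of all genes, and the others did not pass. Ctsl, a cysteine protease, read 10.07 and 10.61 in GM-BMDC, 12.06 and 11.81 in GM-BMM and 11.82 and 11.75 in M-BMM, with differences of -1.60 ± 0.19 and -1.45 ± 0.19 against GM-BMM and M-BMM. Ctsk, best known from bone-resorbing cells, fell in GM-BMDC against GM-BMM (-2.08 ± 0.22) and rose in GM-BMM against M-BMM (2.61 ± 0.22). Ctsd (-0.79 ± 0.14) and Casp1 (-0.75 ± 0.12), the caspase that matures interleukin-1 beta, also fell in GM-BMDC against GM-BMM, and Ctso (-1.32 ± 0.16), Lgmn (-1.10 ± 0.14) and Ctsd (-0.73 ± 0.14) in GM-BMDC against M-BMM. Ctss (0.87 ± 0.15) and Ctsh (0.52 ± 0.11) rose in GM-BMM against M-BMM, and Capn1, a calpain gene, was the member that rose in GM-BMDC against M-BMM. The mean of 9 macrophage markers ran lower in GM-BMDC, at 8.90 and 9.64, than in GM-BMM, at 10.61 and 10.57; its part was not tested.

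Of 16 measured membrane and complement serine proteases, 0 rose and 4 fell in GM-BMDC against GM-BMM, 5 rose and 1 fell in GM-BMM against M-BMM, and 2 rose and 3 fell in GM-BMDC against M-BMM, with medians of -0.10, 0.13 and 0.01. In either direction 25%, 37.5% and 31.2% were called, beside 10.4%, 6.19% and 16.7% of all genes. The complement genes Cfb and C1s1 fell in GM-BMDC against GM-BMM (-4.05 ± 0.35 and -2.79 ± 0.21) and rose in GM-BMM against M-BMM (2.47 ± 0.35 and 3.13 ± 0.21), C1s1 being low in GM-BMDC and M-BMM. C1ra moved the same way (-1.74 ± 0.22 and 1.77 ± 0.22), and C1rl fell in GM-BMDC against GM-BMM (-1.39 ± 0.18). Cfb also fell in GM-BMDC against M-BMM (-1.57 ± 0.35). Hpn, the hepsin gene, fell against M-BMM in GM-BMDC (-1.601 ± 0.14) and in GM-BMM (-1.15 ± 0.14), and St14, the matriptase gene, rose in GM-BMDC against M-BMM (1.33 ± 0.17). Furin, the convertase that SERPINB8 inhibits in human, read 10.15 and 10.04 in GM-BMDC, 10.18 and 9.65 in GM-BMM and 9.004 and 8.94 in M-BMM. It rose in GM-BMDC against M-BMM by 1.12 ± 0.18 (limma adjusted p = 0.005), where Serpinb8 fell. Furin also rose in GM-BMM against M-BMM, by 0.94 ± 0.18 (limma adjusted p = 0.023), where Serpinb8 differed by 0.92 ± 0.36 and did not pass. Between GM-BMDC and GM-BMM, Furin differed by 0.18 ± 0.18 (limma adjusted p = 0.638).

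Of 37 measured protease inhibitors of other families, 3 rose and 2 fell in GM-BMDC against GM-BMM, 4 rose and 0 fell in GM-BMM against M-BMM, and 4 rose and 1 fell in GM-BMDC against M-BMM, with medians of 0.05, 0.06 and 0.02. In either direction 13.5%, 10.8% and 13.5% were called, beside 10.4%, 6.19% and 16.7% of all genes, so the last was under that share. Slpi, a secreted inhibitor of neutrophil elastase, read 6.21 and 6.15 in GM-BMDC, 8.81 and 8.99 in GM-BMM and 7.17 and 6.96 in M-BMM, with GM-BMM above the others (-2.72 ± 0.13 in GM-BMDC against GM-BMM and 1.84 ± 0.13 in GM-BMM against M-BMM). Spint1, which inhibits membrane serine proteases, rose against M-BMM in GM-BMDC (4.01 ± 0.28) and in GM-BMM (3.80 ± 0.28), and Spint2 rose in GM-BMDC against GM-BMM (1.91 ± 0.19) and against M-BMM (1.97 ± 0.19). Timp1, an inhibitor of metalloproteinases, rose in GM-BMDC against GM-BMM by 1.36 ± 0.18 and against M-BMM by 1.595 ± 0.18. Wfdc21 fell in GM-BMDC against GM-BMM (-1.80 ± 0.17) and rose in GM-BMM against M-BMM (1.63 ± 0.17), Spink2 rose in GM-BMM against M-BMM (0.98 ± 0.22), and Cst3, the cystatin C gene, rose in GM-BMDC against M-BMM (1.01 ± 0.11).

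**Figure D5:**
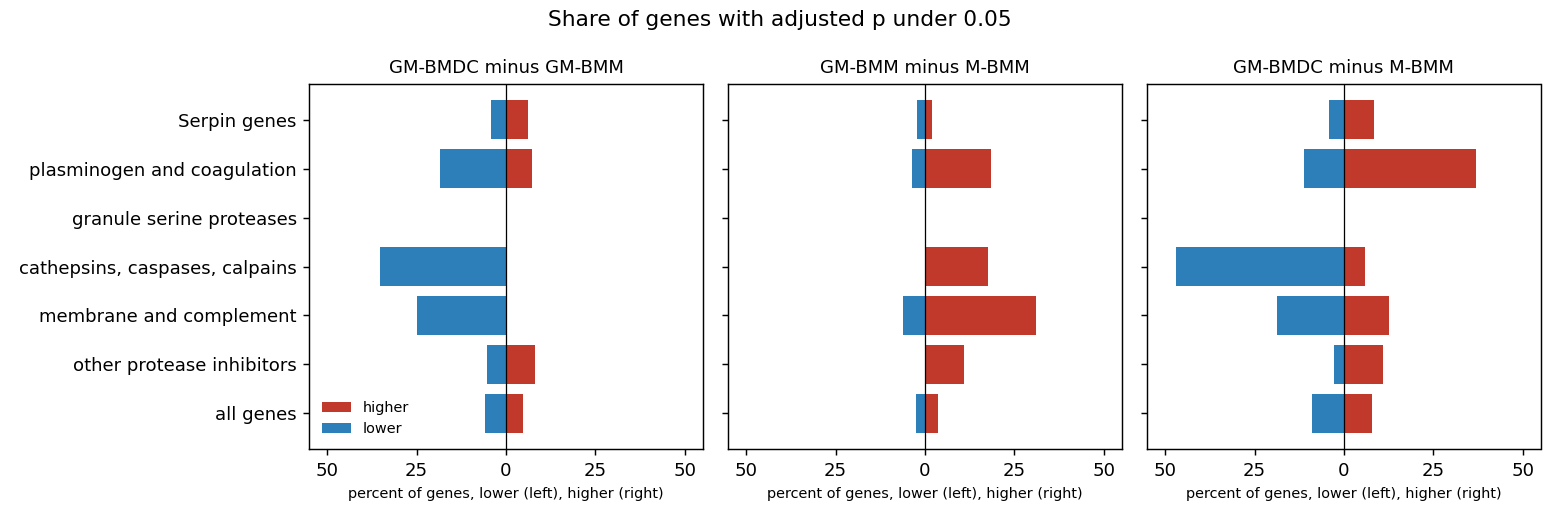
Percent of measured genes with a limma adjusted p under 0.05 (horizontal axis, higher to the right of 0 and lower to the left) for the Serpin genes, 5 lists of proteases and other inhibitors, and all genes, in each comparison. The granule serine proteases have no bar. The cathepsin, caspase and calpain list reaches 35.3% lower in GM-BMDC against GM-BMM and 47.1% lower against M-BMM. Of all genes, 5.74% and 8.9% were lower in these comparisons.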

How the data were processed

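The authors deposited 1 log2 value per probe set and array for 6 arrays, made with Affymetrix Expression Console 1.1 and RMA, per the submitters' processing notes; the genome build is not given in the sources used here. RMA evens out array distributions (medians 6.18 to 6.28), so a shift common to all genes would not be seen. Probe sets were named from GEO's platform annotation: 21789 of 35556 had 1 gene, 1621 several and 12146 none. The probe set with the highest mean was kept for each of 19938 genes. limma 3.58.1 in R 4.3.3 was fitted to all 6 arrays by population (3 residual and 4.34 prior degrees of freedom), with two-sided tests, Benjamini-Hochberg adjustment over all genes at 0.05 and no filter; the fit was tested on simulated data.

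Members, lists and tests were chosen with earlier results of these data known. Genes were named by a rule: Serpin genes past the threshold in a comparison, those with a population mean above 6.22, and up to 4 passing genes per list and comparison with the largest differences; other named genes are range ends or were picked with their values in view. The intracellular protease list also holds the aspartic protease gene Ctsd. Arrays have no read depth, and 2 per population limit the precision (median SE 0.132). Replicate numbers share no stated origin. Promoters, gene order and motifs came from RefSeq tables on GRCm38.p6 (41 of 48 members matched, 49 windows); alignment used Biopython 1.88, figures matplotlib 3.10.9, and tables pandas 2.3.3 with NumPy 2.4.6 under Python 3.11.15. The 15 alternatives left out arrays, added a replicate block, or changed the samples fitted, variance model, probe set rule, features tested, low-value filter or scaling.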

Additional observations from a re-analysis of the deposited data

How the results depend on the processing

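Serpinb6b, Serpinb9 and Serpinb9b in GM-BMDC against either macrophage population, and Serpinb8 in GM-BMDC against GM-BMM, passed with the same sign in all 15 alternatives. Of the log2 differences of the 10 named Serpin genes under alternatives, 396 kept their sign and their side of the threshold, 24 no longer passed, 17 newly passed and 13 changed sign; the cause was not tested. No difference that passed in the fit reported above changed sign. Without both GM-CSF arrays numbered 1, the differences became 2.33 for Serpinb10 and 0.41 for Serpinb6a in GM-BMDC against GM-BMM, and 0.15 for Serpinb9 in GM-BMM against M-BMM. Without both numbered 2, Serpinb1a became -0.55 in GM-BMDC against GM-BMM and 0.83 in GM-BMM against M-BMM, where it passed (limma adjusted p = 0.0346). With each array left out in turn, GM-BMDC against GM-BMM ran from -2.91 to 1.14 for Serpinb10, -0.34 to 1.92 for Serpinb1a, -0.56 to 0.20 for Serpinb6a and -0.0034 to 0.0801 for Serpinf2, and GM-BMM against M-BMM from -1.43 to 0.83 for Serpinb1a and -0.41 to 0.15 for Serpinb9.

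Counts of Serpin genes moved by over 1.5 times as follows. Without both GM-CSF arrays numbered 1, 5 were higher in GM-BMDC against GM-BMM, 7 higher in GM-BMDC against M-BMM and 3 lower in GM-BMM against M-BMM. Without both numbered 2, 4 were lower in GM-BMDC against GM-BMM and 4 higher in GM-BMM against M-BMM. Fitting only the groups compared left 1 lower in GM-BMDC against GM-BMM. A trended and robust variance left 1 lower in GM-BMDC against GM-BMM, 1 lower in GM-BMDC against M-BMM and 0 higher in GM-BMM against M-BMM, by limma. With each array left out in turn, higher and lower counts ran from 3 to 4 and 1 to 2 in GM-BMDC against GM-BMM, 0 to 2 and 0 to 2 in GM-BMM against M-BMM, and 3 to 5 and 0 to 2 in GM-BMDC against M-BMM. Both counts of 0 in GM-BMM against M-BMM came without either M-BMM array, that of genes lower also without GM-BMM replicate 2.

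Over all genes, fitting only the groups compared gave GM-BMDC against GM-BMM 549 higher and 658 lower calls, and leaving out both GM-CSF arrays numbered 2 gave 1168 higher and 880 lower in GM-BMM against M-BMM. With each array left out in turn, higher and lower counts ran from 549 to 880 and 550 to 1175 in GM-BMDC against GM-BMM, 217 to 804 and 92 to 543 in GM-BMM against M-BMM, and 731 to 1602 and 557 to 1810 in GM-BMDC against M-BMM. Where 1 array is left in a population, it is assumed to vary like the others.

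Over all genes, the deviations of same-numbered arrays from their group means correlated little. The correlation was 0.02 for GM-BMDC and GM-BMM, -0.13 for GM-BMDC and M-BMM and 0.03 for GM-BMM and M-BMM. The Y-linked Eif2s3y did deviate together, at 3.94 and 3.66 in the GM-BMDC and GM-BMM arrays numbered 1 and 8.80 and 9.10 in those numbered 2. Whether same-numbered GM-CSF arrays share an origin was not tested. With the replicate number as a block, GM-BMDC against GM-BMM gave 3 Serpin genes higher and 2 lower, with 1 and 1 in GM-BMM against M-BMM and 4 and 2 in GM-BMDC against M-BMM, and all genes gave 890 and 1073, 715 and 461, and 1457 and 1603. Of the counts of the protease and inhibitor lists under alternatives, 30 moved by over 1.5 times and 195 did not. Among the granule serine proteases, 1 was called in GM-BMDC against GM-BMM with the replicate block, 1 in GM-BMDC against M-BMM with array medians set equal and 1 in GM-BMM against M-BMM without both GM-CSF arrays numbered 2. A filter at the 25th percentile kept 17 of the 48 Serpin genes and 15823 of all 19938 genes.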

Other observations

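Another 5 probe sets carry Serpin genes without belonging to any single gene. The 2 shared by the antitrypsin copies Serpina1a to Serpina1e read 4.40 to 4.76 and 5.51 to 6.07 over the 6 arrays. The 3 shared by Serpinb9d, Serpinb9e, Serpinb9f and Serpinb9g read between 4.05 and 4.62.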
